A study of Mus musculus with 5 samples.

Results

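Plau, Plat and Plaur of the plasminogen activator system, the matrix metalloproteinase genes Mmp7, Mmp9, Mmp13 and Mmp14, the inhibitor gene Timp1 and the related secreted proteinase gene Adamts1 were measured in sorted epithelial cells of the mouse trachea. All probe sets that the array's annotation assigns to 1 of these genes alone were taken, which gave 14 probe sets for 9 genes, of 45037 probe sets without controls and 18193 genes. The basal group held 2 arrays of TROP-2+ITGA6+ cells from dispase-digested surface epithelium of the lower trachea. The duct group held 3 arrays of TROP-2+ cells from the submucosal gland ducts of the upper trachea, sorted after pronase had removed the surface epithelium. All mice were C57BL/6 of both sexes, 8 to 12 weeks old, with no transgene or treatment named, and every array came from its own pool of 10 to 15 mice. The enzyme, the tracheal section and the antigens of the sort differed along with the cell type, and cannot be told apart from it in any difference.

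Plau encodes urokinase and Plat encodes tissue plasminogen activator, the serine proteases that cut plasminogen to plasmin. Plaur encodes the receptor that holds urokinase at the cell surface, and serpins such as the product of Serpinb2 inhibit both activators. Plasmin degrades fibrin and can activate secreted metalloproteinases, which are made as inactive precursors, cleave matrix proteins and are held in check by the TIMP proteins. In airway epithelium these genes are known from wound closure and cell migration, and several are classic targets of the AP-1 transcription factors, dimers of Fos and Jun family proteins. An array measures transcripts and says nothing of enzyme activity.

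The bases before the start sites of Plaur and Adamts1, whose duct arrays all lay above the basal arrays, are shown together with the matching stretches of Mmp7 and Mmp13, which stayed near background, because an AP-1 gene, Fosl1, passed the test. Sequences are from RefSeq, build GRCm38.p6, and read 5′ to 3′ on the gene's strand. Of the 9 genes, 6 had an entry in the RefSeq promoter table, while Plau, Plat and Mmp9 had none. In Plaur, Mmp7 and Mmp13 the capitals mark the AP-1 motif TGANTCA, and in Adamts1, which lacks it in this window, they mark the TATA motif TATAAA.
Plaur, chr7:24462233-24462482, plus strand: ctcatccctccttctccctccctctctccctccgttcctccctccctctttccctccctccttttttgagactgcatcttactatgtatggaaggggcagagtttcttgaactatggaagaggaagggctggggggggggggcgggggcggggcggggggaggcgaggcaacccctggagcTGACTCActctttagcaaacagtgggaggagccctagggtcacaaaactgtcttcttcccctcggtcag
Adamts1, chr16:85803114-85803363, minus strand: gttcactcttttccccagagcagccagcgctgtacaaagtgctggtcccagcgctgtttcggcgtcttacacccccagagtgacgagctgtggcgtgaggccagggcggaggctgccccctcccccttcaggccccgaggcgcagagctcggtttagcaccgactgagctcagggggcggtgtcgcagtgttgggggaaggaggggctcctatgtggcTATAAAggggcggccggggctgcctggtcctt
Mmp7, chr9:7691997-7692063, plus strand: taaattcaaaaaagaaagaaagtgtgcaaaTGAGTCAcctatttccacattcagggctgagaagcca
Mmp13, chr9:7272449-7272513, plus strand: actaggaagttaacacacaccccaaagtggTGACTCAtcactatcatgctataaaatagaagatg

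Motifs were searched on both strands in the 250 bases before each start site. TGANTCA was found once in Plaur, 69 to 63 bases before the start, and once in Mmp13, 35 to 29 bases before it. Mmp7 had 2 windows in the table. The first, from which the stretch above is taken, held TGANTCA once, 63 to 57 bases before the start, and the second did not hold it. TGANTCA was not found in Mmp14, Timp1 or Adamts1. Of all 32851 windows of this length in the table, 6.75% held it. The TATA motif of Adamts1 lay 32 to 27 bases before the start, and 12.4% of all windows held that motif. TATAAA was also found in Mmp13, 16 to 11 bases before the start, in lower case in the stretch above. The first Mmp7 window held it at 123 to 118 and at 26 to 21 bases before the start, outside the stretch shown. No TGANTCA match overlapped a match of TATAAA, of the ETS motif AGGAAG or of the Sp1 motif GGGCGG, which were found in 29.5% and 32.7% of all windows. Of the 3 genes with an AP-1 match, Mmp7 and Mmp13 were too dim to be tested between the groups. Any bearing of these motifs on the transcript levels was not tested.

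The arrays were checked before the members were compared. Duct replicate 1 stood apart in overall brightness, its median being 92.3 and that of the other 4 arrays 146.5 to 152.8, so fold changes below are also given without it. The labels were set against marker lists by the summed intensity of each gene's brightest probe set. Background was taken as the brightest of the array's Bacillus controls. All 8 airway basal markers exceeded it on all 5 arrays, and their sum was 61608 and 65427 in basal and 76224 to 89753 in duct cells. Of the 8, 4 were above both basal arrays on every duct array and 4 were below both, so the sum gives no direction for the list. Krt14 measured 1327 and 1533 on the basal arrays, against 18615, 18421 and 22413 on the duct arrays. Ngfr went the other way, at 1791 and 1820 against 406, 754 and 466. The 8 squamous epithelium markers summed to 8867 and 10945 in basal and 86444 to 115096 in duct cells, and the 4 thyroid follicle markers on the array to 212 and 235 in basal and 9154 to 20879 in duct cells. Tg made up most of each duct thyroid sum, at 8779, 16062 and 20119. The 5 club cell markers exceeded background on all 5 arrays. Their sum was 121962 and 166212 in basal and 109562 to 137027 in duct cells. Scgb1a1, at 9934 and 32690, and Scgb3a1, at 7615 and 28609, differed between basal replicates 1 and 2. Scgb3a2, Cyp2f2 and Bpifa1 were close on those arrays. Of 11 myeloid leukocyte markers 7 and 9 were above background in basal and 9 to 10 in duct cells, with sums of 7913 and 20052 against 15123 to 22048. Lyz2 made up most of each myeloid sum, at 5374 and 16327 on the basal and 19517, 12275 and 18187 on the duct arrays. These sums thus mainly give the level of 1 gene. Of the squamous markers 5 and 4 were above background on basal replicates 1 and 2, and 8 on each duct array. Krtdap, Sprr1b, Lgals7 and Tg were below it on both basal arrays. The part of squamous, thyroid, club or myeloid cells in the results was not tested. Myeloid cells express Plau and Plaur; the 7 tested myeloid markers had 0 called in limma (unadjusted p under 0.05: 2 higher, 1 lower) and a median log2 fold change of 0.73. The leukocyte marker Ptprc measured 254 and 533 in basal and 415, 373 and 1100 in duct cells, which overlapped. The macrophage marker Cd68, at 189 and 211 against 294, 437 and 313, and the neutrophil marker S100a9, at 22.3 and 158 against 231, 239 and 306, were above both basal arrays on every duct array. Of the 7, S100a9 and Csf1r passed the filter on dim values only through the duct arrays, so their direction and the median are no support. The monocyte marker Cd14, at 1732 and 2119 against 700.2, 1182 and 662, was below both basal arrays on every duct array. Of the same list, S100a8 measured 69.6 and 60.6 in basal and 73.9, 26.8 and 72.0 in duct cells. Itgam measured 134 and 124 in basal and 38.3, 19.4 and 155 in duct cells. Both S100a8 and Itgam overlapped between the groups and were too dim to be tested. Fibroblast sums, at 3894 and 4783 against 1929 to 4303, and endothelial sums, at 746 and 1007 against 528 to 931, overlapped between the groups. Dcn made up most of each fibroblast sum, at 3106 and 4090 in basal and 1520, 3123 and 2524 in duct cells. Egfl7 was the largest part of each endothelial sum, at 588 and 369 in basal and 393, 504 and 364 in duct cells. In sorted bulk samples, fewer cells of a type and less RNA per cell cannot be told apart.

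Transcript levels in duct cells were set against those in basal cells. Plau, Plat, Plaur and Adamts1 were higher on each of the 3 duct arrays than on either basal array, but 0 of the 5 tested members passed the test. The duct mean was 2.37 to 4.44 times the basal mean for the brightest probe sets of these 4 genes. Mmp14 overlapped between the groups, and Mmp7, Mmp9, Mmp13 and Timp1 were too dim to be tested. Each log2 fold change is the duct mean minus the basal mean of log2(intensity + 16), a scale that shrinks the changes of dim genes, and was tested with limma over 12536 genes at a Benjamini-Hochberg adjusted p under 0.05. Over all tested genes 0.838% were called higher and 0.136% lower in duct cells, and in 16.5% every duct array lay above both basal arrays. Among the 27022 probe sets past the filter on dim values, 14.9% had the duct arrays above both basal arrays and 0.215% were called higher. At an unadjusted p under 0.05, limma had 4 of the 5 tested members higher and 0 lower, against 7.91% and 10.6% of all tested genes. The members were chosen with earlier results of these data known, so this contrast is no support. The 4 members left out by the filter on dim probe sets are not in these counts. The median log2 fold change of all tested genes was -0.12 as reported, -0.05 after quantile normalization and 0.08 after median centring, so differences of that size are not read as a direction.

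**Figure D1:**
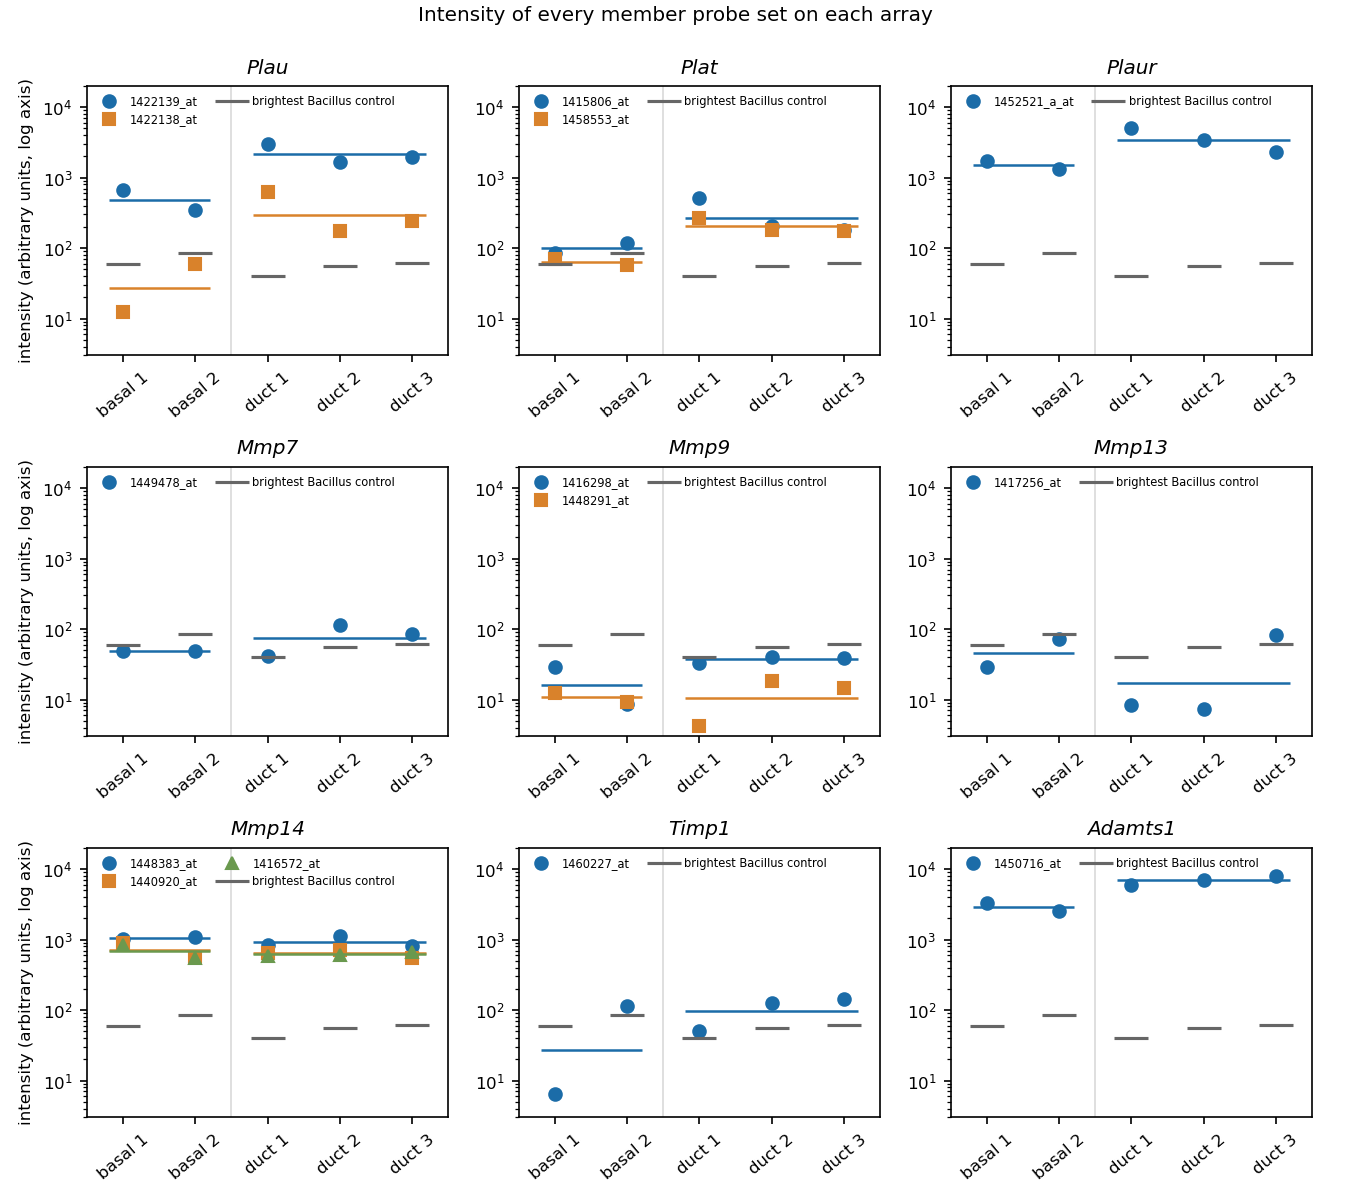
Intensity in arbitrary units, on a log axis, of all 14 probe sets of the 9 genes on the 2 basal and 3 duct arrays; points are arrays, coloured lines are geometric group means and grey dashes mark each array's brightest Bacillus control, between 39.5 and 86.5. Plau, Plat, Plaur and Adamts1 are higher on all duct arrays, Mmp14 is level, and the other 4 genes lie around the control level.

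Urokinase came first among the members by size of difference. The brighter probe set of Plau measured 658 and 342 on basal replicates 1 and 2, and 3016, 1667 and 1987 on duct replicates 1, 2 and 3. Its lowest duct array was thus above its highest basal array, and duct replicate 1 was the brightest. The means were 500.2 ± 223 (SD, n = 2) and 2223 ± 705 (SD, n = 3), a log2 fold change of 2.14 (SE 0.40, 95% confidence interval 1.14 to 3.14, limma adjusted p = 0.0786). By p it ranked 326 of the 12536 genes. Without duct replicate 1 it was 1.90 (limma adjusted p = 0.142). Plau was past the threshold with median centring (adjusted p = 0.0144), with a pseudocount of 64 (0.0439), with a filter at 60% (0.0367) and with an intensity trend and robust fit (0.00276). Over all 15 alternatives its log2 fold change ran from 1.69 to 2.60.

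The second probe set of Plau was dimmer. It measured 12.4 and 58.9 on the basal arrays, both below their brightest Bacillus control (59.7 and 86.5), and 624, 174 and 241 on the duct arrays, all above it. The groups did not overlap, and duct replicate 1 was again the brightest. Taking the basal arrays at their control level, duct cells were at least 4.13-fold higher. The mean log2(intensity + 16) of this Plau probe set was 5.53 in basal and 8.30 in duct cells, against an edge of 6.64 for the filter on dim values, so it passed only through the duct arrays and is no separate support for the first.

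Plat, the tissue plasminogen activator gene, was dim in both groups. Its brighter probe set measured 86.3 and 120 on the basal arrays, against 506, 203 and 179 on the duct arrays. The groups did not overlap, and duct replicate 1 was more than the sum of the other duct arrays. The log2 fold change was 1.26 (SE 0.48, 95% confidence interval 0.06 to 2.45, limma adjusted p = 0.252), and 0.81 without duct replicate 1 (limma adjusted p = 0.270). The second probe set measured 70.1 and 58.4 in basal and 265, 183 and 177 in duct cells, with means of 64.3 ± 8.27 (SD, n = 2) and 208 ± 49.4 (SD, n = 3). Basal replicate 2 was below its Bacillus control of 86.5. The mean log2(intensity + 16) of this second Plat probe set was 6.32 in basal and 7.79 in duct cells, so it too passed the filter edge of 6.64 only through the duct arrays, and no test of it is given. Over 14 alternatives the lowest adjusted p of Plat in limma was 0.130, with the mean of both probe sets.

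Plaur, the urokinase receptor gene, was represented by 1 probe set. It measured 1718 and 1343 on the basal arrays, against 5108, 3471 and 2295 on the duct arrays. Every duct array was above both basal arrays, while the 3 duct arrays were spread over more than a doubling. Means were 1530 ± 266 (SD, n = 2) and 3625 ± 1413 (SD, n = 3), and the log2 fold change was 1.17 (SE 0.39, 95% confidence interval 0.21 to 2.14, limma adjusted p = 0.207). Without duct replicate 1 it was 0.89 (limma adjusted p = 0.288). Of 15 alternatives, the intensity trend with robust fit alone put it past the threshold (limma adjusted p = 0.0371). Duct replicate 1 was the brightest array for all 5 probe sets of Plau, Plat and Plaur, though its median intensity was the lowest of the 5 arrays.

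Adamts1 encodes a secreted metalloproteinase with thrombospondin repeats that cleaves proteoglycans such as versican. It measured 3320 and 2584 on the basal arrays, against 6005, 7133 and 8135 on the duct arrays. The groups were well separated, and here duct replicate 1 was the lowest duct array. Means were 2952 ± 521 (SD, n = 2) and 7091 ± 1066 (SD, n = 3), a log2 fold change of 1.26 (SE 0.27, 95% confidence interval 0.60 to 1.92, limma adjusted p = 0.0976), and 1.37 without duct replicate 1 (limma adjusted p = 0.142). It passed with a filter at 60% (limma adjusted p = 0.0464) and with the intensity trend and robust fit (0.00155).

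**Figure D2:**
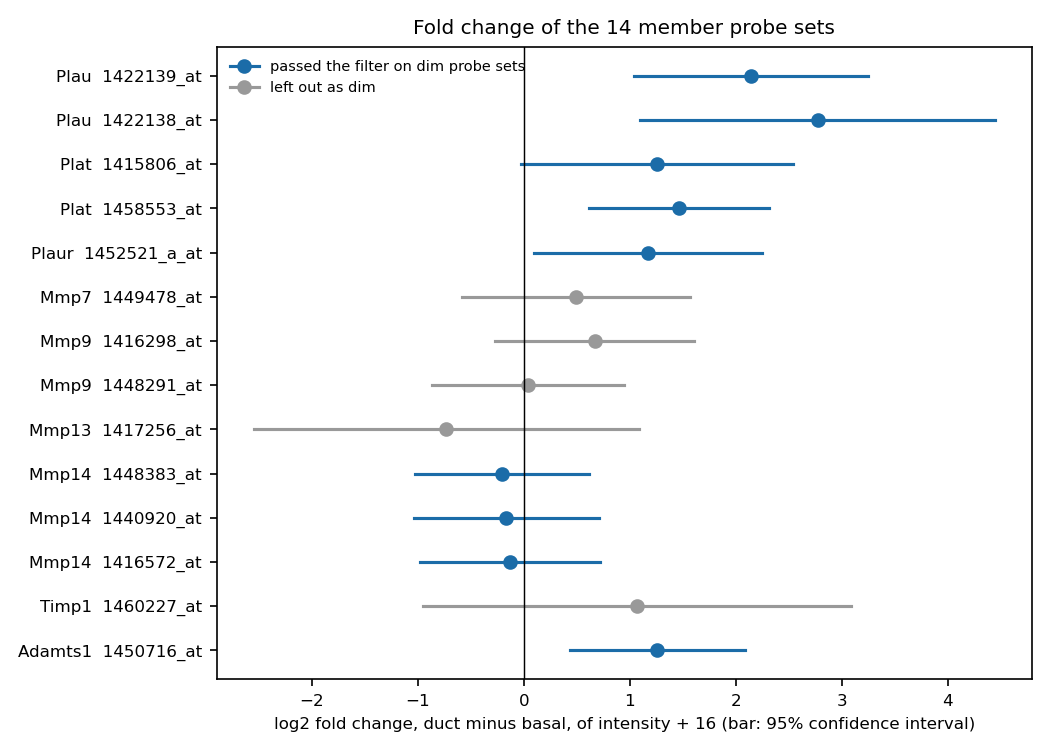
Log2 fold change, duct minus basal, of each of the 14 member probe sets with its 95% confidence interval, from 1 limma fit over all 45037 probe sets without a filter; blue marks the 9 probe sets that passed the filter on dim values, the dimmer ones of Plau and Plat only through the duct arrays, and grey the 5 at or near background. The interval is above 0 for the brighter Plau probe set, Plaur and Adamts1, and runs from -0.03 to 2.54 for the brighter Plat probe set. Intervals of the dimmer Plau and Plat probe sets are no separate support. The 3 Mmp14 probe sets centre between -0.21 and -0.13, and intervals here are wider than those of the 12536-gene fit.

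Mmp14 encodes a membrane-anchored metalloproteinase that degrades collagen and activates the proenzyme of gelatinase A. Its brightest probe set measured 1028 and 1085 on the basal arrays, against 829, 1137 and 804 on the duct arrays. The groups overlapped, with duct replicate 2 the highest of all 5 arrays. The log2 fold change was -0.21 (SE 0.27, 95% confidence interval -0.86 to 0.45, limma adjusted p = 0.718), and -0.0020 after median centring, so no direction is given. The other 2 probe sets measured 574 to 890 and 547 to 847 in basal and 552 to 724 and 588 to 665 in duct cells, with fold changes of -0.17 and -0.13. All 3 probe sets of Mmp14 were above background on all 5 arrays, and the interval of the brightest reaches from 1.82-fold lower to 1.36-fold higher in duct cells.

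The secreted metalloproteinases lay at or near background. Mmp7, the gene of matrilysin, measured 48.5 and 49.2 on the basal arrays, below their Bacillus controls, and 41.7, 114 and 84.4 on the duct arrays, above theirs. Duct replicate 1 was below both basal arrays, so the groups overlapped. The geometric duct mean of Mmp7 was 1.03 times the control level of the basal arrays, about level with it, so no direction and no other fold is given. Mmp9, the gene of gelatinase B, had 2 probe sets, at 8.73 to 39.6 and 4.24 to 18.1 over the 5 arrays. Neither exceeded the brightest Bacillus control on any array, so no fold is given for Mmp9. Mmp13, the gene of a collagenase, measured 29.0 and 73.1 on the basal arrays, against 8.28, 7.40 and 81.4 on the duct arrays. It exceeded background on duct replicate 3 alone.

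Timp1, a secreted inhibitor of most matrix metalloproteinases, varied within both groups. It measured 6.45 and 114 on the basal arrays, against 49.7, 125 and 142 on the duct arrays. Basal replicate 1 was below its Bacillus control while basal replicate 2 was above it, and the groups overlapped. The log2 difference of Timp1 was 1.07 (95% confidence interval -0.95 to 3.09); it was -0.20 without basal replicate 1 and 2.34 without basal replicate 2, so basal replicate 1 sets its sign. The interval of Timp1 is from the limma fit over all 45037 probe sets.

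The filter on dim values removed the lowest 40% of probe sets by mean log2(intensity + 16), which put its edge at 6.64. Just inside was the second Plau probe set, at 7.19, and just outside was Timp1, at 6.40.

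Other genes of the plasminogen system were taken from a fixed list, of which 14 of 18 were on the array under that name and 7 were tested. Serpinb2, the gene of plasminogen activator inhibitor type 2, rose in duct cells and was the 1 gene of the list that was called. In the list 0 genes were called lower, and at an unadjusted p under 0.05 limma had 1 higher and 1 lower. Serpinb2 measured 265 and 238 on the basal arrays, against 3504, 1549 and 2564 on the duct arrays. The lowest duct array of Serpinb2 was several times the highest basal array, and duct replicate 1 was the brightest, as for Plau, Plat and Plaur. Its log2 fold change was 3.18 (SE 0.39, limma adjusted p = 0.0330). Serpinb2 lost its call when any 1 of the 5 arrays was left out, at adjusted p of 0.224 and 0.167 without basal replicates 1 and 2 and of 0.0714, 0.0549 and 0.160 without duct replicates 1, 2 and 3, while the log2 fold change stayed between 2.91 and 3.49. It was also lost with no filter (0.0801) and with probe sets as the unit (0.0650). The median log2 fold change of the list was 0.44, against -0.12 over all tested genes. Of its 7 tested genes, 5 had a positive and 2 a negative log2 fold change. The 2 negative ones, Lrp1 at -0.64 and Hpn at -0.68, were below both basal arrays on every duct array. Neither was called (limma adjusted p = 0.269 and 0.333).

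S100a10 and Anxa2 encode the subunits of a complex that binds plasminogen and tissue plasminogen activator at the cell surface. S100a10, whose probe set is of the kind that may cross-hybridise, measured 19782 and 17652 on the basal arrays, against 22126, 23926 and 32631 on the duct arrays. Anxa2 measured 16130 and 16536 on the basal arrays, against 20533, 20447 and 25955 on the duct arrays. On these brightest probe sets of both genes the duct arrays lay above the basal arrays by a small margin. The log2 fold changes were 0.47 and 0.44 (limma adjusted p = 0.419 and 0.394), and neither passed. With the mean of each gene's probe sets they were larger, at 0.78 and 0.74 (limma adjusted p = 0.185 and 0.419), and again neither passed. The transcript of plasminogen itself, Plg, was at 4.28 to 8.13 and below background on all 5 arrays.

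Of 19 other matrix metalloproteinase genes 14 were on the array and 6 were tested; 0 were called in either direction with limma, and at an unadjusted p under 0.05 also 0. The list's median log2 fold change was 0.14, over 6 genes of which Mmp17 passed the filter only through the duct arrays. The brightest tested were Mmp24, a membrane-anchored enzyme, and Mmp11, the gene of stromelysin-3. Mmp24 measured 349 and 835 on the basal arrays, against 400, 604 and 604 on the duct arrays. Mmp11 measured 156 and 376 on the basal arrays, against 269, 314 and 442 on the duct arrays. In both the basal arrays lay further apart than the group means, and the sign of Mmp24 (-0.04) turned with quantile normalization and that of Mmp11 (0.43) without basal replicate 1.

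Among 8 other inhibitors and activators of metalloproteinases, 6 were tested and 0 were called with limma (unadjusted p under 0.05: 1 higher, 1 lower), with a median of -0.38. Timp3, a matrix-bound inhibitor, measured 3476 and 4008 on the basal arrays, against 6038, 8643 and 5646 on the duct arrays. Its groups did not overlap (log2 fold change 0.83, 95% confidence interval 0.12 to 1.54, limma adjusted p = 0.216). Timp2, A2m and Furin lay the other way, below both basal arrays on every duct array. Their log2 fold changes were -0.80, -1.11 and -0.47 (limma adjusted p = 0.358, 0.232 and 0.383). Timp2 measured 3074 and 3365 on the basal arrays, against 1403, 3068 and 1453 on the duct arrays. Bsg, whose product basigin induces metalloproteinases in neighbouring cells, measured 5133 and 4867 in basal and 5034, 3647 and 3726 in duct cells (-0.29, limma adjusted p = 0.599). The groups of Bsg overlapped through duct replicate 1.

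Of 23 other ADAMTS and ADAMTS-like genes 19 were on the array and 8 were tested; 0 were called with limma, and an unadjusted p under 0.05 was reached by 0 that were higher and 3 that were lower. Of these 8 genes 7 had a negative fold change, with a median of -0.60, while Adamts1 was at 1.26. Adamtsl5 measured 813 and 889 on the basal arrays, against 331, 558 and 374 on the duct arrays (-1.02, limma adjusted p = 0.172). Adamtsl4 measured 616 and 1051 in basal and 746, 684 and 660 in duct cells, which overlapped; its fold change of -0.21 turned to 0.17 without basal replicate 2 and to 0.00021 with median centring. Adamts15, a proteoglycan-cleaving relative of Adamts1, is named here because of its values; it measured 463 and 462 on the basal arrays, against 157, 193 and 129 on the duct arrays. Its groups did not overlap and lay in the opposite order from Adamts1 (-1.46, 95% confidence interval -2.11 to -0.82, limma adjusted p = 0.0728), a contrast between these genes that was not tested.

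The AP-1 and ETS transcription factors, known regulators of plasminogen activator and metalloproteinase genes, had 13 of 14 genes tested, 1 called higher and 0 lower, with a median of -0.04. At an unadjusted p under 0.05 limma had 2 of them higher, Fosl1 and Ets2, and 2 lower, Fos and Ets1. Fosl1, the gene of the AP-1 subunit FRA1, rose in duct cells. It measured 1531 and 1054 on the basal arrays, against 6570, 5149 and 4798 on the duct arrays. The groups of Fosl1 did not overlap, and duct replicate 1 was the brightest. The means were 1293 ± 338 (SD, n = 2) and 5506 ± 938 (SD, n = 3), a log2 fold change of 2.09 (SE 0.29, limma adjusted p = 0.0488). Fosl1 lost its call when any 1 of the 5 arrays was left out (adjusted p 0.200 and 0.196 without basal replicates 1 and 2, and 0.106, 0.132 and 0.165 without duct replicates 1, 2 and 3), with a pseudocount of 1 (0.0613), with no filter (0.110) and with probe sets as the unit (0.0882). Jun measured 33135 and 27471 in basal and 27336, 26840 and 29776 in duct cells. Jund measured 21263 and 16218 in basal and 20039, 18192 and 21459 in duct cells. Both overlapped, and their fold changes of -0.11 and 0.10 changed sign with median centring and with quantile normalization respectively. Fos, the founding member of its AP-1 family, is named here because of its values; it measured 23541 and 22613 on the basal arrays, against 11162, 13845 and 12183 on the duct arrays. Its groups did not overlap, in the opposite order from Fosl1 (log2 fold change -0.90, limma adjusted p = 0.138). Ets1 measured 1328 and 2464 in basal and 872, 1058 and 846 in duct cells (-0.96, limma adjusted p = 0.219), and Ets2 measured 9282 and 8574 in basal and 14533, 15711 and 16311 in duct cells (0.80, limma adjusted p = 0.160). None of Fos, Ets1 and Ets2 passed.

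**Figure D3:**
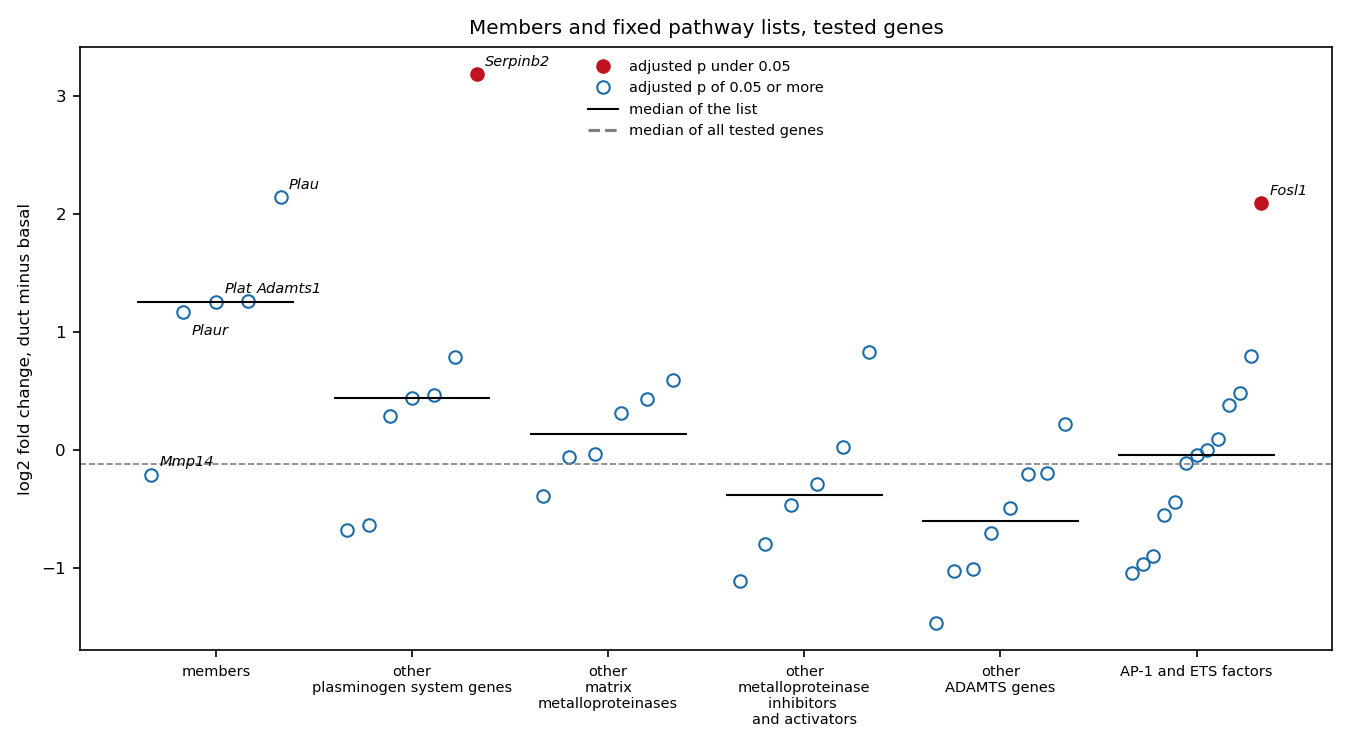
Log2 fold change, duct minus basal, of the 5 tested members and of the 40 tested genes of 5 fixed pathway lists; filled red points had an adjusted p under 0.05, black lines are list medians and the dashed line is the median of all 12536 tested genes, at -0.12. Serpinb2 at 3.18 and Fosl1 at 2.09 are the called genes, and 4 of the 5 members lie between 1.17 and 2.14.

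Across the 5 lists, 40 genes were tested, 2 were called higher and 0 lower. The 3 tested genes outside the members whose centred values over the 5 arrays were closest to those of Plau were Pla2g4e, a cytosolic phospholipase gene, Tnfrsf10b, a TRAIL receptor gene, and BC016579. Their Euclidean distances from Plau, on log2(intensity + 16) values over 5 arrays and among 12531 genes, were 0.14, 0.36 and 0.40. Pla2g4e measured 82.5 and 35.8 on the basal arrays, against 473, 233 and 298 on the duct arrays, the same order of arrays as Plau. Pla2g4e and BC016579, with basal means of 6.16 and 6.10 in log2(intensity + 16), passed the filter edge of 6.64 only through the duct arrays. None of the 3 was called (limma adjusted p 0.0786 to 0.0948). The genes closest to Mmp14 were Tnrc18, Atpaf1 and Ift20, at distances of 0.07 each, with fold changes of about the same small size, -0.19 to -0.20, that turned positive with median centring.

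**Figure D4:**
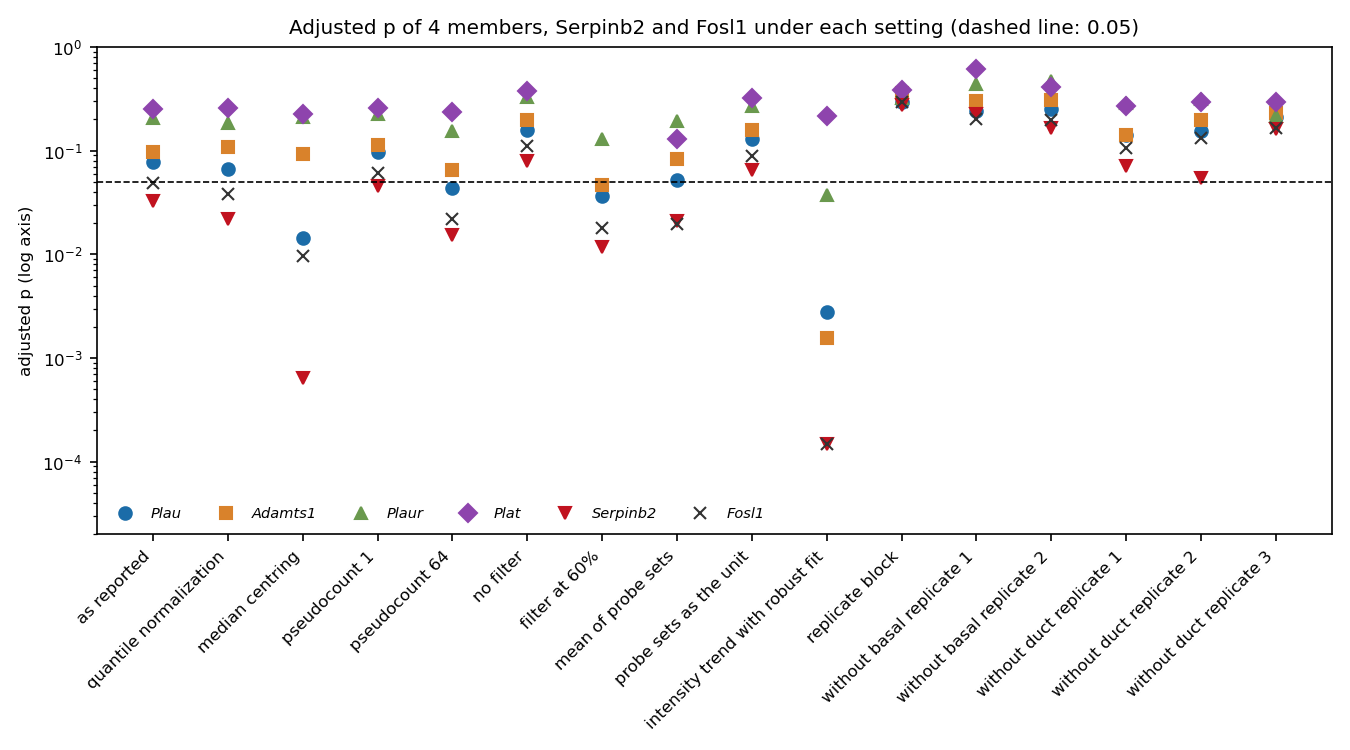
Adjusted p from limma, on a log axis, of Plau, Adamts1, Plaur, Plat, Serpinb2 and Fosl1 under the reported setting and 15 alternatives; the dashed line is 0.05 and a missing point means that the gene was not tested there. No gene is below the line in any of the 5 fits that leave out an array, and the intensity trend with robust fit puts 5 of the 6 below it, with Plat at 0.216.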

How the data were processed

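RNA from 5 pools of sorted tracheal epithelial cells was hybridised to Affymetrix Mouse Genome 430 2.0 arrays, per the labels. The authors deposited 1 linear intensity per probe set and array; their values show scaling to a mean of 500.0 after 2% trimming at each end, and no quantile normalization. How probe sets were summarised, the background correction and the software: not given in the sources used here. Of 45101 probe sets 64 were controls and were left out; 34945 had 1 gene symbol. No column of another sample was present (0).

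Log2(intensity + 16) values of all 5 arrays were fitted in R 4.3.3 with limma 3.58.1 (lmFit, then eBayes), 2-sided, without covariates (3 residual and 2.79 prior degrees of freedom). Probe sets in the lowest 40% by mean log2 value were removed, and the probe set with the highest mean stood for each of 12536 genes. All adjusted p-values are limma's with Benjamini-Hochberg adjustment over all features of the fit. Background was the brightest of 27 Bacillus control probe sets on each array (39.5 to 86.5). Precision is limited by the number of arrays. No 2 arrays shared more than 1 identical value.

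Named genes are every member, up to 4 called genes and the 2 with the highest mean of each pathway list, and the 3 genes closest to the members with the largest positive and negative fold change. Plg, Lrp1, Hpn, Mmp17, Timp2, A2m, Furin, Adamts15, Fos, Ets1, Ets2 and the cell type markers named singly were named after their values were seen. The members and lists were chosen with earlier results of these data known. Alternatives changed the scaling, pseudocount, filter, probe set rule, variance model, replicate block and arrays 1 at a time. The fit was tested on simulated data. Figures were drawn with matplotlib 3.10.9.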

Additional observations from a re-analysis of the deposited data

How the results depend on the processing

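The number of members called higher was 0 as reported, 1 with median centring and with a pseudocount of 64 (Plau), 2 with a filter at 60% (Plau and Adamts1), 3 with an intensity trend and robust fit (Plau, Adamts1 and Plaur) and 0 in the other 11 alternatives; 0 members were called lower in any. The number of all tested genes called, 122 as reported, was 338 with median centring, 303 with a pseudocount of 64, 36 with no filter, 408 with a filter at 60%, 191 with the mean of probe sets, 63 with probe sets as the unit and 942 with the intensity trend and robust fit, and 0 to 39 with 1 array left out. Of the listed pathway genes 2 were called as reported, 1 with a pseudocount of 1, 0 with no filter and with probe sets as the unit, 5 with the trend and robust fit and 0 with any array left out. The cause was not tested.

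With the replicate number as a block 0 genes passed in limma (at an unadjusted p under 0.05, 650 were higher, 4 of them members, and 958 lower, 0 of them members); Plau was at 2.20 (adjusted p = 0.295), a fit that takes nothing from duct replicate 3. The numbers name separate pools, and deviations of same-numbered arrays correlated at -0.08 and -0.04 across genes.

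Signs turned for Mmp24 (0.12 with quantile normalization, 0.17 with median centring, 0.041 with the mean of probe sets, 0.15 without duct replicate 1, -0.65 to 0.57 over the fits with 1 array left out), Mmp11 (-0.16 without basal replicate 1, up to 1.02 without basal replicate 2), Adamtsl4 (0.00021 with median centring, -0.58 to 0.17 with 1 array left out), Jun (0.10 with median centring, 0.025 without basal replicate 1 and down to -0.25 without basal replicate 2), Jund (-0.072 with quantile normalization, -0.25 with the mean of probe sets, -0.099 without basal replicate 2 to 0.29 without basal replicate 1), Tnrc18 (0.0070 with median centring, 0.12 with the mean of probe sets), Atpaf1 (0.0051) and Ift20 (0.016), the last 2 with median centring. No tested member changed sign. Mmp7, Mmp9, Mmp13 and Timp1 were limited by signal near background.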
